A study of Mus musculus with 9 samples.

Results

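The 39 Hox genes of the mouse lie in the HoxA, HoxB, HoxC and HoxD clusters, and their levels were read here across 9 RNA-seq libraries of embryonic fibroblasts. Members were the genes whose name is Hox, a cluster letter and a paralogue number, which gave 40 gene IDs of the 54986 in the files, since Hoxd4 carries 2 IDs. Of these, 33 IDs had a level of 1 TPM or more in 3 or more libraries and were tested. TPM, the unit used throughout, is corrected for transcript length and scaled to a fixed sum per library. The other 7 did not reach that level and are described by their values alone.

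The RNA came from primary embryonic fibroblasts of C57BL/6 mice, and every title carries D4-OSKM-2ndMEFs. They formed 3 groups of 3: control, overexpression of Zscan4f and overexpression of Zscan4f3A. All groups, control included, thus carry OSKM, the usual abbreviation for the reprogramming factors Oct4, Sox2, Klf4 and Myc, and no group without it was analysed here. The control titles name no overexpressed gene and no empty vector, so an effect of the vector and an effect of Zscan4f cannot be told apart. The sources used here give neither the meaning of D4, nor the sequence of Zscan4f3A, nor the promoter behind either overexpression. The labels do not say that replicates were grown apart, so p-values reflect only how far these samples spread, a spread that may be technical.

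Hox genes encode homeodomain transcription factors that give cells along the head-to-tail axis and along the limbs their positional identity. Within a cluster the genes stand in the order in which they are used: low paralogue numbers lie at the 3′ end and are active early and toward the head, and high numbers lie at the 5′ end and are active late, toward the tail and the tips of the limbs. Genes with the same number in different clusters are paralogues with overlapping functions. Fibroblasts are known to keep the Hox pattern of the site they came from in culture, a memory held by Polycomb repression of unused genes and Trithorax maintenance of used ones.

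The label check held for the overexpressed gene: the Zscan4f entry, which does not part the added copy from the cell's own, stood at 0.330, 0 and 0.960 TPM in the control libraries, at 570.0, 565 and 558 in the Zscan4f libraries and at 827, 836 and 654 in the Zscan4f3A libraries. All 15 fibroblast markers were detected in every library, the lowest at 12.7 TPM, with summed levels of 14218 to 14481 TPM in control, 14531 to 14658 with Zscan4f and 14135 to 14521 with Zscan4f3A. With Zscan4f 3 of them rose (Col1a2, Pdgfra and Dcn) and 7 fell (Col1a1, Col3a1, Col5a1, Col6a1, Pdgfrb, Vim and Twist1). In that comparison with control 18.5% of all genes were called, 8.74% higher and 9.71% lower. The same shares apply to the other marker lists. Between the means of control and Zscan4f, Col5a1 fell from 535 to 370 TPM, Col6a1 from 294 to 203 and Pdgfrb from 58.0 to 40.6. Col1a2 rose from 4260 to 5050 TPM and Dcn from 1236 to 1756, so the fibroblast sum hides changes in both directions. Summed epithelial, keratinocyte, neural, macrophage and endothelial markers were also higher with Zscan4f, and summed muscle markers were not. The 12 epithelial markers summed to 58.2 to 62.3, 133 to 142 and 60.5 to 65.5 TPM in the same order of groups, and 5 of the 7 tested rose. Of these 5, Cldn4 reached 1 TPM only in the Zscan4f libraries (1.53, 2.31 and 2.39 TPM). It was thus tested only through the group where it was high, and its call adds no support. The 9 keratinocyte markers summed to 39.2 to 40.5, 94.5 to 103 and 45.03 to 47.1 TPM, with 2 of 5 tested higher and 2 lower. The 8 neural markers summed to 195 to 199.99, 264 to 284 and 211 to 214 TPM, with 4 of 5 tested higher. The 8 macrophage markers summed to 18.9 to 21.5, 26.5 to 27.8 and 18.7 to 20.8 TPM, with 1 of 4 tested higher and 1 lower, and the 6 endothelial markers to 39.8 to 42.7, 59.04 to 62.8 and 41.4 to 43.4 TPM, with both tested members higher. Several of these markers were clearly expressed and rose between the means of control and Zscan4f: Cdh1 from 14.1 to 22.1 TPM, Epcam from 1.38 to 6.53, Krt8 from 20.2 to 78.5, Krt14 from 28.5 to 85.3, Nes from 30.9 to 79.0, Tek from 30.9 to 45 and Cd68 from 12 to 18.7. Krt14 alone held 27.0 to 29.5 TPM of the keratinocyte sum in control and 82.6 to 90.0 with Zscan4f. The members of these lists called lower were Krt1 (from 3.33 to 1.46 TPM), Krt5 (from 1.25 to 0.577) and Cd14. Krt5 reached 1 TPM only in control, so it was tested only through that group. Others stayed under 1 TPM in every library, among them Cldn7, Ocln, Esrp1, Grhl2 and Ovol1 of the epithelial list, Krt15 and Dsc3 of the keratinocyte list, Sox10, Elavl3 and Elavl4 of the neural list, Ptprc, Adgre1, Csf1r and Fcgr1 of the macrophage list and Pecam1, Cdh5, Kdr and Emcn of the endothelial list. The muscle list summed to 0.927 to 2.58, 1.65 to 2.30 and 1.63 to 2.30 TPM in the same order of groups, and its 1 tested member was not called. Of this list, Myod1, Myf5 and Pax7 were listed at 0. The part of these markers in the Hox values below was not tested, and in bulk RNA fewer cells of a type and less RNA per cell cannot be told apart. Aligned sequence per library, estimated from the ratio of coverage to FPKM, ran from 3.31 gigabases (Zscan4f3A replicate 3) to 8.39. Counts are not among the values used here, so the depth behind a single value is unknown and precision comes from the 3 libraries of a group.

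The fibroblasts expressed an almost complete Hox set. Of the 40 IDs, 32 stood at 1 TPM or more in every library, 7 stayed under 1 TPM in every library, and Hoxd3 was under 1 TPM in 2 libraries. The IDs under 1 TPM lay mostly at the ends of the clusters: Hoxb1 and Hoxd1 at the 3′ ends, Hoxb13, Hoxc11, Hoxc12 and Hoxc13 at the 5′ ends, and the second Hoxd4 ID (ENSMUSG00000115956.1). Hoxb1, known from the hindbrain, and Hoxb13, known from the tail bud and the prostate, were listed at 0 in all 9 libraries. Hoxc11 held 0.198 to 0.430 TPM, Hoxc12 0 to 0.396, Hoxc13 0.0379 to 0.480, Hoxd1 0 to 0.276 and the second Hoxd4 ID 0 to 0.763. Expressed neighbours of Hoxc11 and Hoxb1 stood well above them: Hoxc10, next to Hoxc11, held 8.20 to 10.8 TPM, and Hoxb2, next to Hoxb1, 4.32 to 7.14. HoxA had no member under 1 TPM, and its last gene, Hoxa13, held 8.43 to 12.8. The 1 ID whose group means lay on both sides of 1 TPM was Hoxd3, at 2.92 ± 1.047 TPM in control, 1.99 ± 0.770 in Zscan4f and 0.945 ± 0.349 in Zscan4f3A.

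**Figure D1:**
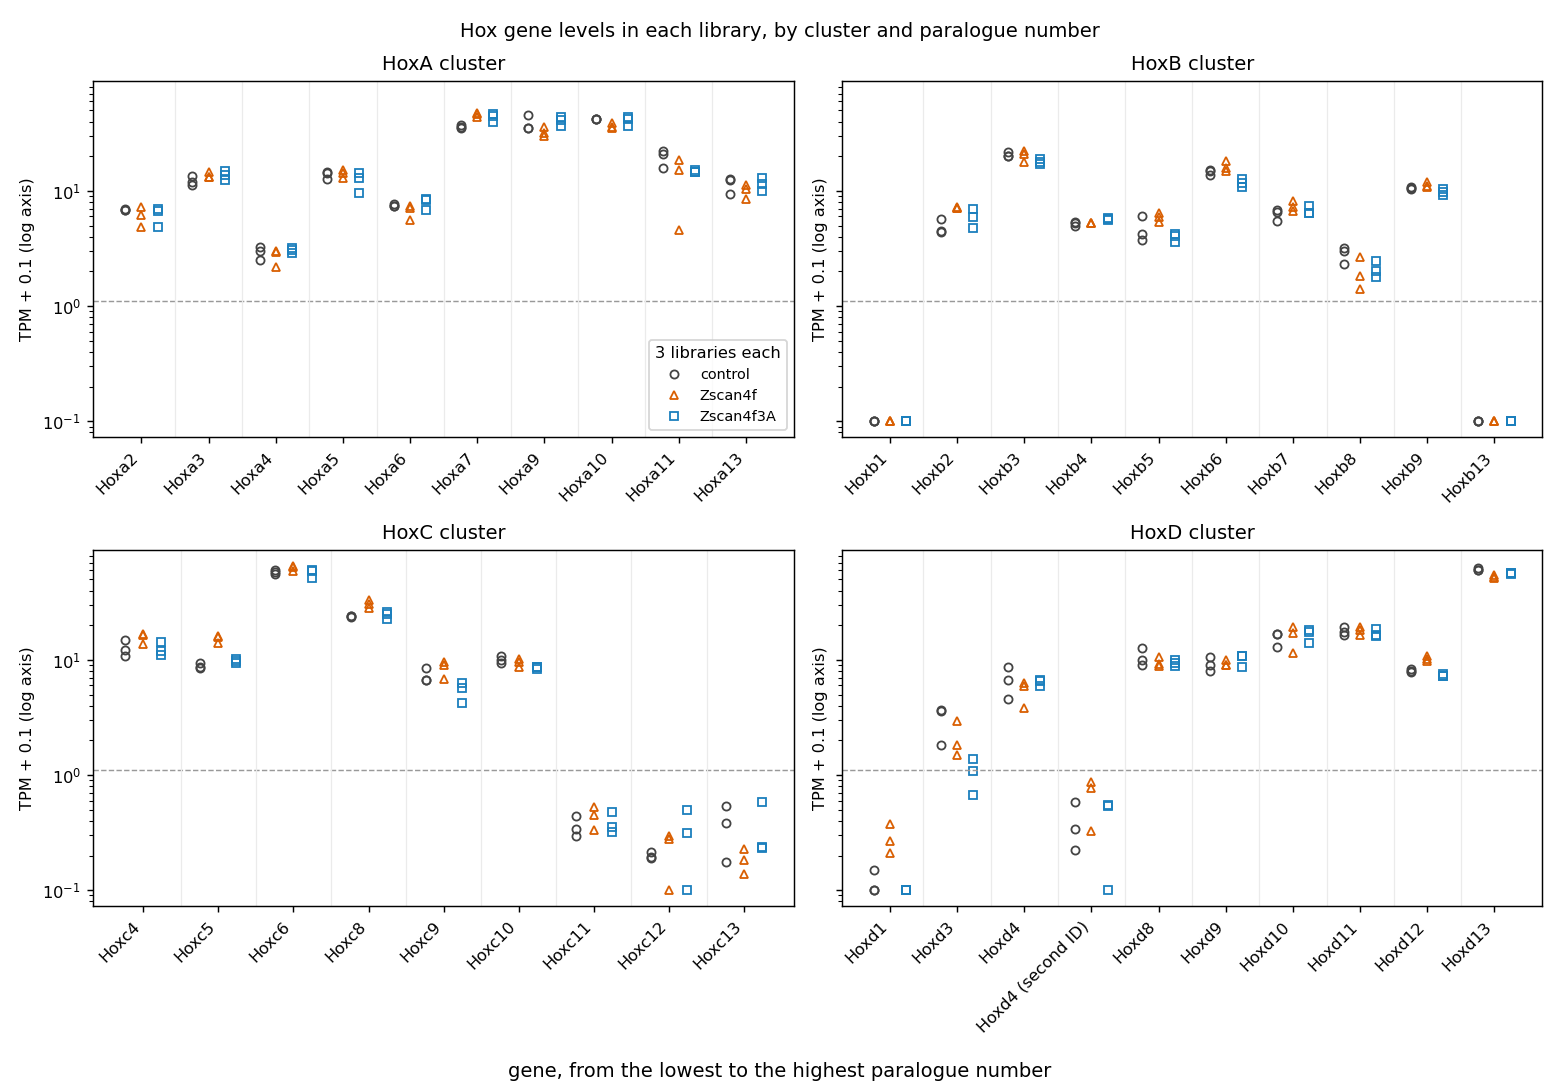
TPM + 0.1 on a log axis of the Hox gene IDs described here in every library, 1 panel per cluster, genes ordered by paralogue number. Points are single libraries (circles control, triangles Zscan4f, squares Zscan4f3A) and the dashed line marks 1 TPM. The 7 IDs under the line in every library sit mostly at cluster ends, and the 3 groups keep nearly the same profile.

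Summed over all members, Hox transcripts amounted to 514, 511 and 519 TPM in control, 528, 512 and 533 with Zscan4f and 497, 509 and 501 with Zscan4f3A. The Zscan4f libraries overlapped control, and the Zscan4f3A libraries lay a little below it. By mean level over the 9 libraries the leading genes were Hoxc6 at 59.1 TPM, a thoracic-level paralogue, Hoxd13 at 56.6, the most 5′ HoxD gene and a gene of digits and genitalia, Hoxa7 at 41.7, Hoxa10 at 39.8, Hoxa9 at 37.2 and Hoxc8 at 26.2. Among tested members the lowest was Hoxd3 at 1.95. In control, Hoxd13 (60.9 ± 1.02 TPM, mean ± SD, n = 3, as for every ± here) stood above Hoxc6 (57.5 ± 2.38) in every library. With Zscan4f the order was the other way in every library, 62.8 ± 3.25 for Hoxc6 and 52.6 ± 1.56 for Hoxd13. With Zscan4f3A the pair did not differ beyond its spread, 56.9 ± 4.8 and 56.5 ± 0.614. Next in order, Hoxa7, Hoxa10 and Hoxa9 overlapped in the ranges of their control libraries only in part: Hoxa9 ran from 34.8 to 45.7 TPM there, across both others. Across the 33 tested genes the mean levels in control and with Zscan4f had a Spearman rho of 0.96, and those in control and with Zscan4f3A one of 0.98. These are descriptions across genes of the same libraries, which are not independent replicates.

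Zscan4f was compared with control by limma on log2(TPM + 1) over all 15837 genes tested, where a call meant a p below 0.05 after Benjamini-Hochberg adjustment. Hoxc5, Hoxa7, Hoxc8, Hoxd12 and Hoxb2 rose and Hoxd13 fell, 6 of 33 members (18.2%), while 18.5% of all genes were called in this comparison. The share of Hox genes called was thus about that of all genes. By direction, 5 of 33 were higher against a background of 8.74% and 1 was lower against 9.71%. The median log2 fold change was 0.02 over the Hox genes and -0.003 over all genes, and 31 of the 33 stayed within 1.5-fold, as did 92.4% of all genes. The groups did not overlap in TPM for 8 of 33 members, 6 of them higher and 2 lower, against 38.2% of all genes (19.0% higher and 19.2% lower). The count of 6 rested in part on single libraries: without Zscan4f replicate 3 it was 3, and Hoxc5, Hoxa7 and Hoxd13 were called in all 19 alternative fits. Calls in the 3 comparisons share libraries, and fold changes on this scale understate the change of low genes.

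**Figure D2:**
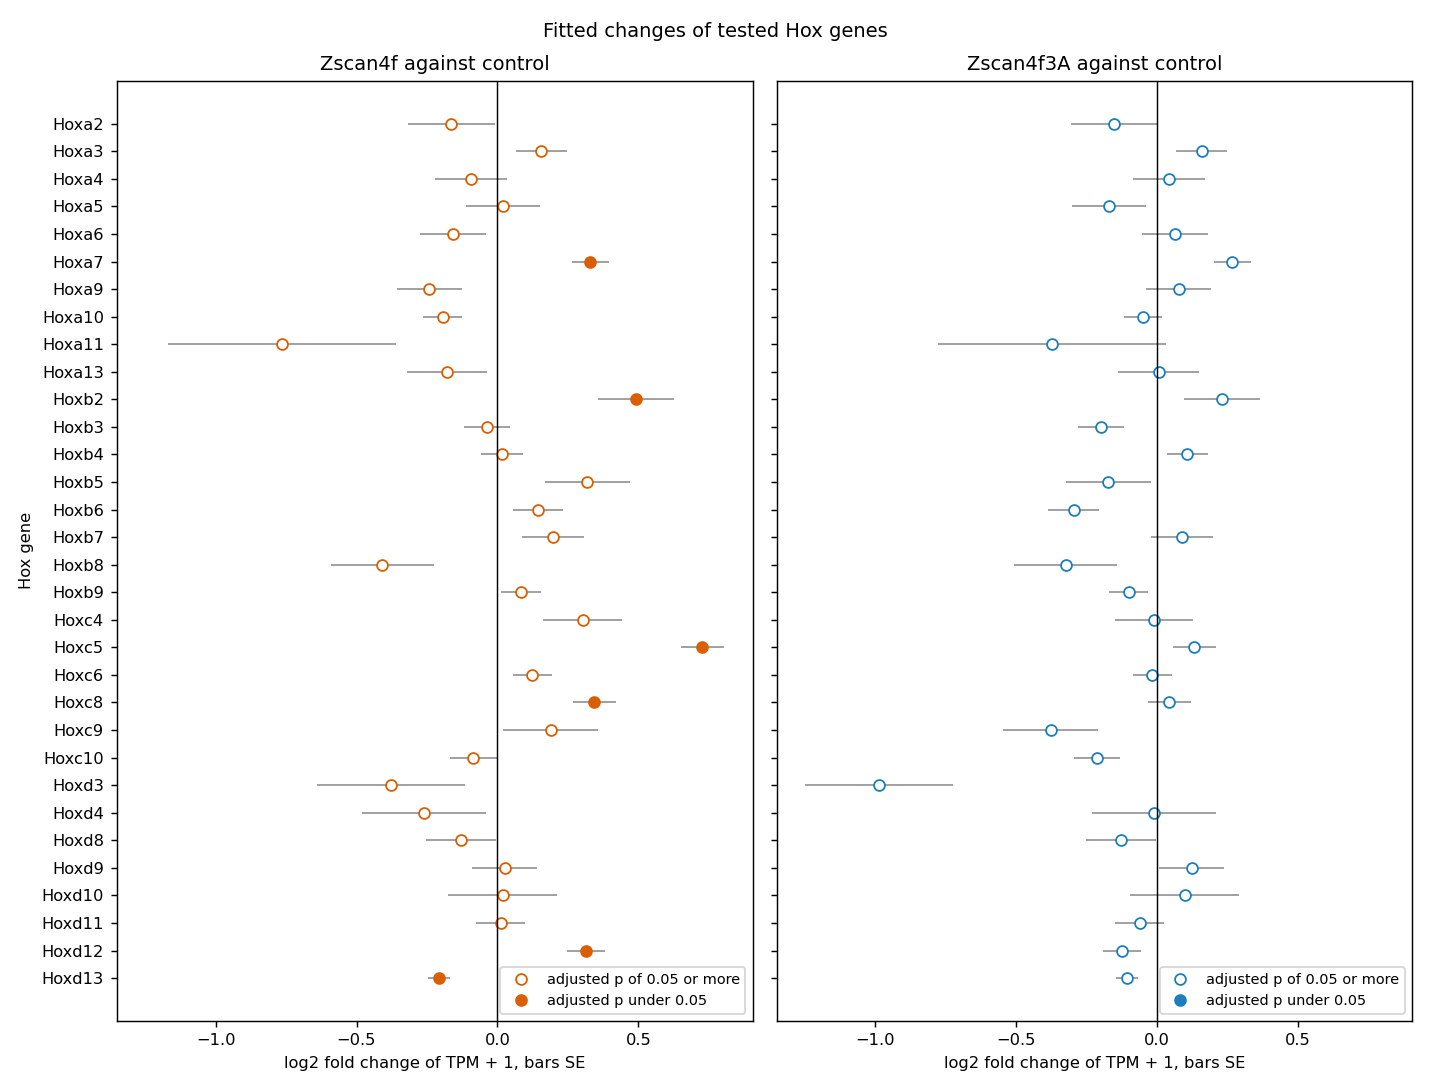
Log2 fold change of TPM + 1 (points) with its SE (bars) for tested Hox genes, Zscan4f against control on the left and Zscan4f3A against control on the right. Filled points have an adjusted p under 0.05: 6 genes on the left, with Hoxc5 the highest at 0.73, and 0 on the right.

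Among the Hox genes called, the largest log2 change was that of Hoxc5, in the HoxC cluster. The 9 HoxC members summed to 125, 118 and 118 TPM in control, 144, 139 and 144 in Zscan4f and 116, 117 and 121 in Zscan4f3A, so that every Zscan4f library lay above every other library. The cluster's 6 tested members, Hoxc4 to Hoxc10, include the paralogues that pattern the neck and the thorax. Hoxc5 (ENSMUSG00000022485.3, chromosome 15, 102967443 to 103017429, plus strand), a lower cervical to upper thoracic paralogue, was at 8.56, 9.28 and 8.47 TPM in control, 16.1, 15.6 and 13.8 in Zscan4f and 9.70, 10.02 and 9.38 in Zscan4f3A. The Zscan4f libraries were all higher than the rest, and the Zscan4f3A libraries lay narrowly above control. Hoxc5 rose 1.73-fold, a log2 change of 0.73 (SE 0.08, adjusted p = 0.00031), and its change in Zscan4f against Zscan4f3A was 0.59 (SE 0.08, adjusted p = 0.0014). The gene model of Hoxc5 in the files starts inside Hoxc10 and spans Hoxc6, Hoxc8 and Hoxc9, and 5.37% of its exonic bases are shared with Hoxc10 on the same strand. Hoxc10 itself, a lumbar paralogue, at 10.8, 9.26 and 9.92 TPM in control, 8.58, 10.1 and 9.43 in Zscan4f and 8.20, 8.61 and 8.59 in Zscan4f3A, did not pass the test.

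Hoxc8 (ENSMUSG00000001657.7, chromosome 15, 102990607 to 102994111, plus strand), a thoracic paralogue needed for normal ribs and for limb motor neurons, was at 23.8, 24.04 and 23.3 TPM in control, 27.8, 30.7 and 32.9 in Zscan4f and 26.2, 22.4 and 25 in Zscan4f3A. The control libraries were tight and the Zscan4f libraries all lay above both other groups. Its rise was 1.28-fold, a log2 change of 0.34 (SE 0.08, adjusted p = 0.015). Without control replicate 3 or without Zscan4f replicate 3 this call was lost, with an adjusted p of at most 0.054. Hoxc6, the most abundant member, stood at 59.98, 57.4 and 55.2 TPM in control, 64.4, 59.1 and 64.9 in Zscan4f and 51.4, 59.1 and 60.2 in Zscan4f3A. The groups overlapped and the change of 0.12 with Zscan4f did not pass the test (adjusted p = 0.27). Hoxc4 was at 14.8, 10.7 and 11.97 TPM in control, 16.8, 13.6 and 16.2 in Zscan4f and 14.2, 11.9 and 10.9 in Zscan4f3A. Hoxc9, a paralogue at the thoracic to lumbar transition, was at 6.54, 6.59 and 8.41 TPM in control, 9.44, 8.92 and 6.69 in Zscan4f and 5.62, 4.13 and 6.23 in Zscan4f3A. Neither passed the test in a comparison, and the Zscan4f3A libraries were the lowest for Hoxc9. The ratio of Hoxc5 to Hoxc6 was 0.143, 0.162 and 0.153 in control, 0.251, 0.264 and 0.213 in Zscan4f and 0.189, 0.170 and 0.156 in Zscan4f3A, so the relative use of these neighbours differed between Zscan4f and the other groups without overlap, while the ratio in the Zscan4f3A libraries overlapped control.

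The miR-615 hairpin lies in an intron of Hoxc5, and its mature arms are shown because the entry sits inside the called member with the largest log2 change. They are RefSeq sequences on GRCm38.p6 (plus strand, chr15:103014926-103014947 for the 5p arm and chr15:103014969-103014990 for the 3p arm), with the seed, bases 2 to 8, in capitals.
mmu-miR-615-5p: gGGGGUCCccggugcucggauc
mmu-miR-615-3p: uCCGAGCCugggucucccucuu
The Mir615 entry was low, at 1.01, 0.146 and 0.706 TPM in control, 1.34, 1.14 and 1.5 in Zscan4f and 0.183, 0.494 and 0 in Zscan4f3A. All 3 Zscan4f libraries were above the others, and Mir615 was higher in Zscan4f than in Zscan4f3A at a log2 change of 0.94 (SE 0.24, adjusted p = 0.03), a call lost in 8 of its alternative fits. Mir615 reached 1 TPM only in the Zscan4f libraries and in control replicate 1, so it passed the filter through the group where it was high. The call is therefore no independent support for a difference in Mir615. Against control its change of 0.56 did not pass the test (adjusted p = 0.15). Libraries of this kind are made from long RNA, so these values do not measure the mature miRNA.

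In the HoxD cluster, 2 adjacent genes moved in opposite directions with Zscan4f. Hoxd13 (ENSMUSG00000001819.4, chromosome 2, 74668310 to 74671599, plus strand), needed for digits, was at 62.0, 60.3 and 60.3 TPM in control, 51.1, 54.2 and 52.5 in Zscan4f and 56.4, 57.1 and 55.9 in Zscan4f3A. Control was highest, Zscan4f lowest and Zscan4f3A in between, and no group overlapped another. The fall with Zscan4f had a log2 change of -0.21 (SE 0.04, adjusted p = 0.0066), a ratio of 0.865. With Zscan4f3A the change was -0.11 (SE 0.04, adjusted p = 0.51), which did not pass. Hoxd12 (ENSMUSG00000001823.5, chromosome 2, 74675013 to 74677705, plus strand), its neighbour, also a gene of the distal limb, was at 7.82, 8.15 and 7.85 TPM in control, 10.04, 9.64 and 10.7 in Zscan4f and 7.10, 7.38 and 7.13 in Zscan4f3A. The Zscan4f libraries were again separate from both other groups, here above them, and the Zscan4f3A libraries lay just below control. Hoxd12 rose 1.28-fold against control, 0.32 (SE 0.07, adjusted p = 0.012), and 1.41-fold against Zscan4f3A, 0.44 (SE 0.07, adjusted p = 0.0032). Without Zscan4f replicate 3 the first of these had an adjusted p of 0.052. The ratio of Hoxd12 to Hoxd13 was 0.126, 0.135 and 0.130 in control, 0.196, 0.178 and 0.204 in Zscan4f and 0.126, 0.129 and 0.128 in Zscan4f3A, which gives 0.130 ± 0.00462, 0.193 ± 0.0136 and 0.128 ± 0.00159. Being taken within a library, that ratio does not depend on how libraries are scaled to each other.

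The 250 bases before the start sites of this pair are shown because the neighbours moved in opposite directions. They are RefSeq sequences on GRCm38.p6, plus strand, 5′ to 3′ (chr2:74667975-74668224 for Hoxd13 and chr2:74674763-74675012 for Hoxd12), with each CG dinucleotide in capitals.
Hoxd13: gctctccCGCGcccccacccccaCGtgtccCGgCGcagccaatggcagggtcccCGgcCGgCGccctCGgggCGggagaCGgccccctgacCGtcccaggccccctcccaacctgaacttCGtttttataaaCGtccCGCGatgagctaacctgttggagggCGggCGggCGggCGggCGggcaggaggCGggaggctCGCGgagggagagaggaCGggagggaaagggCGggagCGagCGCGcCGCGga
Hoxd12: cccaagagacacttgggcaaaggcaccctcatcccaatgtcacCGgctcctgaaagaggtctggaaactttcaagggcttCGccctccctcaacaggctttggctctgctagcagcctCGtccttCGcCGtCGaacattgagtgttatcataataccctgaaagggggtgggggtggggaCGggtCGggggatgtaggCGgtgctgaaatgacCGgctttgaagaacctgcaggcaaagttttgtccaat
The Hoxd13 sequence holds 31 CG dinucleotides at 74.4% G and C, and 94.8% of the 32851 RefSeq promoter windows of the same length hold fewer. The Hoxd12 sequence holds 10 at 55.6% G and C, with 62.2% of windows holding fewer, and the median over all windows was 6. The letters TATAAA, searched on both strands, occur in the Hoxd13 window and not in the Hoxd12 window, and in 12.4% of all windows. CCAAT occurs in both and in 33.8% of all. Windows were given for 22 of the 39 Hox names (24 windows), with a median of 12.5 CG dinucleotides. These matches describe the sequence only.

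The other HoxD genes were called in no comparison. Hoxd11, a gene of the forearm, was at 16.3, 17.3 and 19.3 TPM in control, 18.0, 16.3 and 19.1 in Zscan4f and 16.2, 16.0 and 18.3 in Zscan4f3A. Hoxd10, known from lumbar motor neurons, was at 16.7, 16.8 and 12.7 TPM in control, 11.3, 17.2 and 19.1 in Zscan4f and 17.5, 18.1 and 14.0 in Zscan4f3A. For both the groups overlapped. Hoxd9 was at 7.88, 8.92 and 10.5 TPM in control, 8.97, 8.85 and 9.85 in Zscan4f and 8.60, 10.7 and 10.6 in Zscan4f3A. Hoxd8 was at 9.79, 12.6 and 8.87 TPM in control, 9.04, 10.4 and 8.67 in Zscan4f and 9.86, 9.37 and 8.83 in Zscan4f3A. The groups overlapped here too, and none of the 4 passed the test. The main Hoxd4 ID (ENSMUSG00000101174.7) was at 4.47, 6.57 and 8.54 TPM in control, 5.82, 3.70 and 6.18 in Zscan4f and 6.60, 6.44 and 5.83 in Zscan4f3A, with overlap of all groups. Hoxd3 ranged from 0.577 to 3.58 TPM, with 0.988, 1.27 and 0.577 in the Zscan4f3A libraries, all below control, and a log2 fold change there of -0.99 (SE 0.26, adjusted p = 0.41). Hoxd3 and Hoxd4 share 62.3% and 52.3% of their exonic bases with each other or with Gm28230 on the same strand, so how reads were divided between them is uncertain. With these entries summed, an alternative chosen after the data were seen, the change in Zscan4f3A was -0.23 (adjusted p = 0.58). The cluster as a whole summed to 129, 133 and 132 TPM in control, 117, 124 and 128 in Zscan4f and 124, 127 and 121 in Zscan4f3A, lower than every control library in all 6 libraries of the other groups, by a narrow margin for Zscan4f replicate 3.

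Of the 5 genes that rose, Hoxa7 differed most in TPM. Hoxa7 (ENSMUSG00000038236.8, chromosome 6, 52214491 to 52221854, minus strand), a thoracic paralogue, was at 37.4, 35.5 and 35.1 TPM in control, 47.1, 43.4 and 46.0 in Zscan4f and 44.9, 39.6 and 46.3 in Zscan4f3A. All 6 libraries with an overexpressed gene lay above the 3 control libraries. The rise with Zscan4f was 1.26-fold, 0.33 (SE 0.07, adjusted p = 0.009), while with Zscan4f3A the change was 0.27 (SE 0.07, adjusted p = 0.38) and did not pass. Zscan4f and Zscan4f3A overlapped here, with a difference of 0.06 (SE 0.07, adjusted p = 0.57). Of the exonic bases of Hoxa7, 20.4% lie opposite the antisense gene Hoxaas3, whose levels ran from 2.29 to 4.5 TPM and which was not called.

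The 5′ HoxA genes, the paralogues of the posterior trunk and the limb, were not called on their own. Hoxa9, also known from blood progenitors, was at 35.3, 34.8 and 45.7 TPM in control, 35.5, 31.4 and 30.1 in Zscan4f and 36.7, 43.9 and 41.1 in Zscan4f3A. Hoxa10, a gene of the lumbar spine and the uterus, was at 42.2, 41.8 and 42.3 TPM in control, 35.2, 35.9 and 39.0 in Zscan4f and 42.1, 43.3 and 36.7 in Zscan4f3A. All 3 Zscan4f libraries were below control for Hoxa10, but its change of -0.19 (SE 0.07, adjusted p = 0.087) did not pass. It did pass in 2 of 19 alternative fits, with only those groups fitted and without Zscan4f3A replicate 3. Hoxa13, known from the autopod and the hindgut, was at 12.5, 12.4 and 9.28 TPM in control, 10.3, 8.43 and 11.1 in Zscan4f and 9.97, 11.4 and 12.8 in Zscan4f3A, with overlap of all groups.

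On the 3′ side, Hoxa2, a gene of the second branchial arch, was at 6.74, 6.70 and 6.86 TPM in control, 6.13, 4.76 and 7.13 in Zscan4f and 6.62, 4.74 and 6.81 in Zscan4f3A. Hoxa3, needed for the thymus and parathyroid, was at 13.3, 11.9 and 11.04 TPM in control, 13.1, 13.04 and 14.5 in Zscan4f and 14.8, 12.4 and 13.6 in Zscan4f3A. The groups overlapped for both. Hoxa5, a gene of the lung and the lower neck, was at 12.6, 14.2 and 14.4 TPM in control, 14.9, 12.7 and 14.1 in Zscan4f and 9.57, 14.1 and 12.9 in Zscan4f3A. Hoxa6 was at 7.33, 7.59 and 7.24 TPM in control, 7.29, 5.43 and 6.99 in Zscan4f and 8.38, 8.21 and 6.76 in Zscan4f3A. Here too the groups overlapped, and none of the 4 was called. Hoxa4 held 2.1 to 3.19 TPM and was not called. HoxA summed to 189, 193 and 201 TPM in control, 195, 178 and 181 in Zscan4f and 194, 199 and 199 in Zscan4f3A, and Zscan4f and control overlapped.

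Hoxa11, a gene of the forearm and the uterus, was read together with its antisense partner. Hoxa11 (ENSMUSG00000038210.10, chromosome 6, 52242106 to 52245810, minus strand) was at 15.6, 22.3 and 20.7 TPM in control, 18.6, 14.97 and 4.5 in Zscan4f and 14.5, 15.03 and 14.6 in Zscan4f3A. Zscan4f replicate 3 stood far below every other library, and the change with Zscan4f, -0.76 (SE 0.41, adjusted p = 0.25), did not pass. Hoxa11os (ENSMUSG00000086427.8), the antisense RNA that overlaps 35.0% of the exonic bases of Hoxa11, was at 42.3, 34.6 and 31.7 TPM in control, 23.8, 28.7 and 36.8 in Zscan4f and 38.7, 31.3 and 36.1 in Zscan4f3A, and was highest of its group in the library where Hoxa11 was lowest. Whether counting used the strand of reads is not stated, so reads over the shared bases cannot be assigned to 1 of the pair with certainty. The sum of both was 57.9, 56.8 and 52.4 TPM in control, 42.3, 43.7 and 41.3 in Zscan4f and 53.2, 46.4 and 50.7 in Zscan4f3A. For the sum, the Zscan4f libraries lay below both other groups, Zscan4f replicate 3 close to the other two of its group. Fitted as 1 row, an alternative chosen after the data were seen, the pair fell with Zscan4f by limma, at a log2 fold change of -0.38 (adjusted p = 0.0031) against control and -0.23 (adjusted p = 0.038) against Zscan4f3A. Counting this summed row as a Hox gene raised those called lower with Zscan4f from 1 to 2. Hoxa11os was the larger part of the row, with control means of 36.2 TPM for it and 19.5 for Hoxa11. Alone, Hoxa11os did not pass by limma either (-0.29, adjusted p = 0.28), so the call is not one of Hoxa11 itself.

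**Figure D3:**
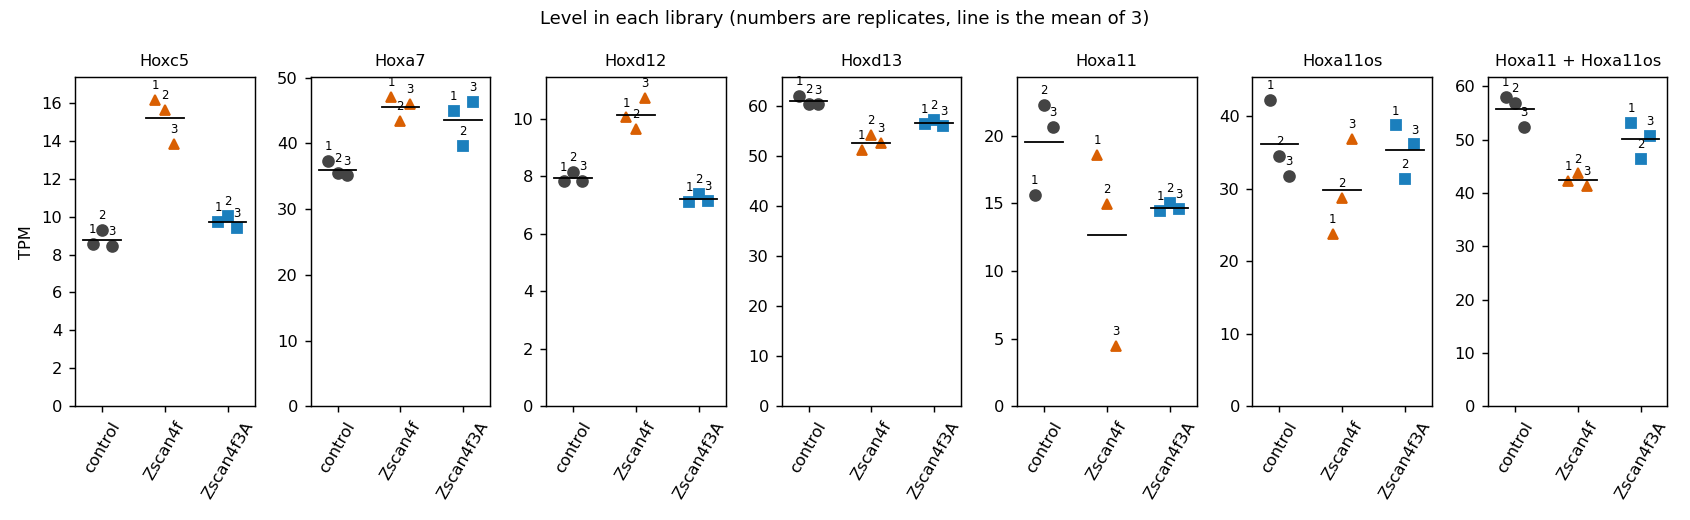
TPM of Hoxc5, Hoxa7, Hoxd12, Hoxd13, Hoxa11, its antisense RNA Hoxa11os and the sum of the last pair in each library, on linear axes from 0. Digits beside points are replicate numbers and lines are group means. Hoxc5 and Hoxd12 are high and Hoxd13 is low in all 3 Zscan4f libraries, and Hoxa11 at 4.5 TPM in Zscan4f replicate 3 coincides with the highest Hoxa11os of that group.

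The HoxB genes were the lowest as a set, with a sum of 71.2, 67.6 and 68.1 TPM in control, 72.9, 72.1 and 78.8 in Zscan4f and 63.1, 65.6 and 60.2 in Zscan4f3A. Every Zscan4f library lay above and every Zscan4f3A library below the control range. Hoxb2 (ENSMUSG00000075588.6, chromosome 11, 96350525 to 96354012, plus strand), a hindbrain paralogue, was at 5.56, 4.34 and 4.32 TPM in control, 7.14, 6.96 and 6.99 in Zscan4f and 4.62, 6.80 and 5.88 in Zscan4f3A. The Zscan4f libraries lay close together, above both other groups. Hoxb2 rose 1.48-fold with Zscan4f, 0.49 (SE 0.13, adjusted p = 0.036), the largest adjusted p of the 6 genes called. It was lost in 7 of 19 alternative fits, 5 of them without a single library (any Zscan4f library, control replicate 2 or control replicate 3), with an adjusted p of at most 0.11. The antisense gene Hoxb3os lies opposite 27.3% of the exonic bases of Hoxb2, and its levels were 0.374 to 1.48 TPM.

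Hoxb6 (ENSMUSG00000000690.5, chromosome 11, 96292476 to 96301569, plus strand), a trunk paralogue, was at 14.9, 13.7 and 14.9 TPM in control, 14.8, 15.6 and 18.2 in Zscan4f and 12.5, 11.7 and 10.8 in Zscan4f3A. Zscan4f3A was the lowest group without overlap, and Zscan4f overlapped control. Hoxb6 was higher in Zscan4f than in Zscan4f3A at 0.44 (SE 0.09, adjusted p = 0.012), while its changes against control were 0.14 (adjusted p = 0.33) with Zscan4f and -0.30 (adjusted p = 0.45) with Zscan4f3A. Hoxb3, of which 52.9% of exonic bases lie opposite Hoxb3os, was at 21.7, 20.0 and 20.1 TPM in control, 20.7, 17.7 and 21.9 in Zscan4f and 17.6, 18.7 and 17.1 in Zscan4f3A. Hoxb4, known from blood stem cells, was at 4.87, 5.31 and 5.11 TPM in control, 5.19, 5.19 and 5.11 in Zscan4f and 5.70, 5.55 and 5.45 in Zscan4f3A. The Zscan4f3A libraries were below control for Hoxb3 and above it for Hoxb4, in neither case past the test. Hoxb5 was at 5.91, 4.09 and 3.65 TPM in control, 5.28, 6.37 and 5.87 in Zscan4f and 4.13, 3.52 and 3.92 in Zscan4f3A. Hoxb7 was at 5.37, 6.78 and 6.52 TPM in control, 6.63, 7.07 and 8.09 in Zscan4f and 6.39, 7.32 and 6.28 in Zscan4f3A. Hoxb9, a thoracic paralogue, was at 10.6, 10.3 and 10.5 TPM in control, 11.9, 10.7 and 10.9 in Zscan4f and 10.2, 9.71 and 9.14 in Zscan4f3A. These 3 genes were called in no comparison, although the Zscan4f libraries were the highest group without overlap for Hoxb9. Hoxb8, the lowest tested HoxB gene, held 1.31 to 3.10 TPM and was not called.

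By paralogue number, the 5′ genes made up a smaller share and the middle genes a larger share of the Hox signal in every Zscan4f library than in every control library. Numbers 9 to 13 made up 47.7, 48.8 and 49.7% of the summed Hox TPM in the control libraries, 43.4, 44.3 and 41.9% with Zscan4f and 47.1, 48.4 and 47.0% with Zscan4f3A. Numbers 4 to 8 made up 41.8, 41.7 and 40.5%, 46.5, 45.9 and 47.2% and 43.2, 42.2 and 43.4% in the same order. For both blocks the Zscan4f libraries were separate from the other groups, and for numbers 4 to 8 the Zscan4f3A libraries also lay above control. Numbers 1 to 3 differed little, at 9.93 ± 0.523% in control, 10.2 ± 0.533% with Zscan4f and 9.54 ± 0.194% with Zscan4f3A. The grouping into blocks was chosen after the values were seen, and the shares carry no test. Without Hoxa11, numbers 9 to 13 made up 46.7 ± 0.819% in control, 41.8 ± 0.731% with Zscan4f and 45.9 ± 0.826% with Zscan4f3A. Between the means of Zscan4f and control, the members of the block 9 to 13 with the greatest negative differences were Hoxd13 (-8.23 TPM), Hoxa11 (-6.86), Hoxa9 (-6.28) and Hoxa10 (-5.39), and those of the block 4 to 8 with the greatest positive ones were Hoxa7 (9.50), Hoxc8 (6.73), Hoxc5 (6.42) and Hoxc6 (5.26). Single genes did not follow the blocks throughout: of 12 tested genes with numbers 9 to 13, 6 had a log2 fold change above 0 and 6 below, and of 15 with numbers 4 to 8, 10 were above and 5 below.

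**Figure D4:**
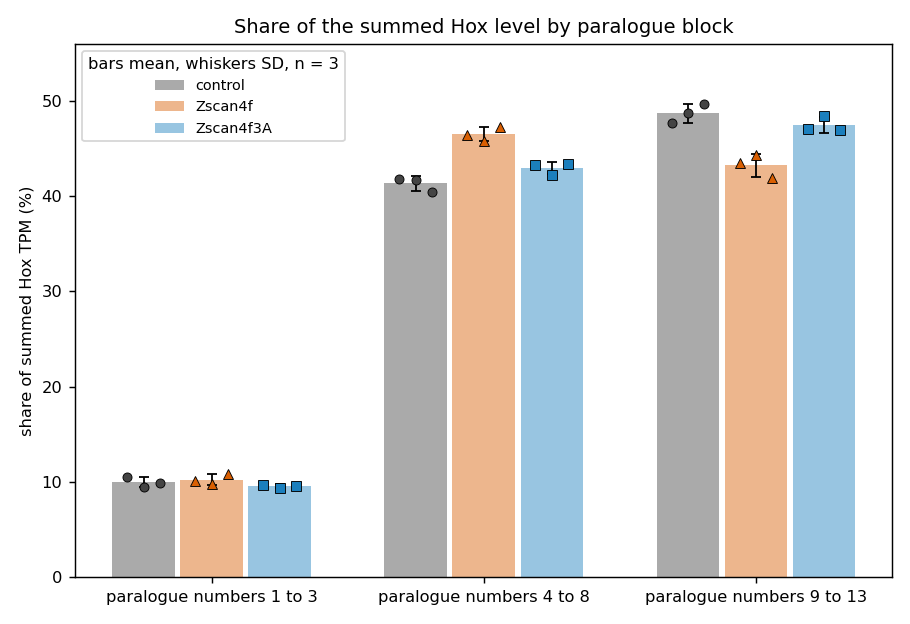
Share of the summed Hox TPM in percent held by paralogue numbers 1 to 3, 4 to 8 and 9 to 13. Bars are group means, whiskers the SD and points the 3 libraries of each group. Numbers 9 to 13 hold 48.7% in control, 43.2% with Zscan4f and 47.5% with Zscan4f3A.

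Summed per paralogue number, groups 5, 7 and 12 were higher and group 13 lower in every Zscan4f library than in every control library. Of all single genes tested, 38.2% did not overlap in this comparison, and no such share was computed for sums. These groups hold the called genes Hoxc5, Hoxa7, Hoxd12 and Hoxd13 respectively, so the sums are no separate support for a change. Group 5 (Hoxa5, Hoxb5 and Hoxc5) held 27.1, 27.5 and 26.5 TPM in control, 36.4, 34.7 and 33.8 in Zscan4f and 23.4, 27.6 and 26.2 in Zscan4f3A. Group 7 (Hoxa7 and Hoxb7) held 42.7, 42.3 and 41.6 TPM in control, 53.7, 50.5 and 54.1 in Zscan4f and 51.3, 46.9 and 52.6 in Zscan4f3A, where both overexpression groups were above control. Group 13, the distal limb genes Hoxa13 and Hoxd13 with Hoxb13 and Hoxc13, both under 1 TPM, held 75.0, 72.7 and 69.8 TPM in control, 61.5, 62.8 and 63.6 in Zscan4f and 66.5, 69.0 and 68.8 in Zscan4f3A. The other 9 groups overlapped between Zscan4f and control.

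With Zscan4f3A, 0 of 33 Hox genes were called against control by limma, where 0.0316% of all genes were (5 genes, 0.0189% higher and 0.0126% lower). At an unadjusted p under 0.05 there were 6, Hoxa7, Hoxb3, Hoxb6, Hoxc10, Hoxd3 and Hoxd13, against 8.77% of all genes, and none of the 6 was called in an alternative fit. The groups did not overlap for 12 of 33 members, against 15.4% of all genes, with 3 higher against 6.29% and 9 lower against 9.09%. The median log2 fold change was -0.05 over the Hox genes and -0.01 over all genes. Zscan4f3A replicate 3 had the lowest depth of the 9 libraries, and the calls against control were also 0 without it. The comparison of Zscan4f with Zscan4f3A called Hoxc5, Hoxd12, Hoxb6 and Hoxc8 higher with Zscan4f, 4 of 33 (12.1%) against 15.1% of all genes (7.48% higher and 7.64% lower), and 0 lower. At an unadjusted p under 0.05 there were 10 of 33, 8 of them higher, against 29.5% of all genes. The groups did not overlap for 13 of 33, against 34.8% of all genes, with 10 higher against 18.3% and 3 lower against 16.5%. Hoxc8 was the least stable, at 0.30 (SE 0.08, adjusted p = 0.032) and lost in 8 of 19 alternative fits, 5 of which left out a library (control replicate 1, Zscan4f replicate 2 or 3, Zscan4f3A replicate 2 or 3).

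Other genes inside the clusters are mostly noncoding, and 23 of them were tested. In Zscan4f against control 0 were higher and 1 lower, Hoxaas2, a noncoding RNA at the 3′ end of Hoxa3 on the other strand, at 3.32, 3.06 and 3.01 TPM in control, 2.18, 2.51 and 2.04 in Zscan4f and 3.26, 3.59 and 3.34 in Zscan4f3A. It fell at -0.35 (SE 0.10, adjusted p = 0.041), a call lost in 11 alternative fits, and was also lower than in Zscan4f3A, -0.44 (SE 0.10, adjusted p = 0.019). Hotair, the HoxC antisense RNA known for silencing HoxD in other settings, was at 0.23 TPM or less in every library. Hotairm1, a noncoding RNA in the HoxA cluster, was at 14.9, 18.3 and 14.4 TPM in control, 17.0, 14.0 and 9.99 in Zscan4f and 12.8, 11.8 and 10.6 in Zscan4f3A and was not called. Beyond the ends of the clusters, 24 nearest tested neighbours held 2 higher and 1 lower. Both counts, 1 of 23 inside the clusters and 3 of 24 beside them, were smaller shares than the 18.5% of all genes called. Halr1, a noncoding RNA beyond the 3′ end of HoxA, was at 1.57, 2.48 and 1.48 TPM in control, 4.38, 3.73 and 4.36 in Zscan4f and 2.42, 3.30 and 3.69 in Zscan4f3A and rose at 0.88 (SE 0.17, adjusted p = 0.0078). Calcoco1, beyond the HoxC cluster, fell from 101 ± 4.5 to 82.2 ± 3.43 TPM, -0.30 (SE 0.05, adjusted p = 0.003). Hnrnpa3, which encodes an RNA-binding protein and lies beyond HoxD, rose from 232 ± 11.6 to 290.0 ± 20.9 TPM, 0.32 (SE 0.07, adjusted p = 0.012). Cbx5, a heterochromatin protein gene beyond HoxC, was called only in Zscan4f against Zscan4f3A, at 0.15 (SE 0.04, adjusted p = 0.034). Nearest means nearest among tested genes: Halr1 lies 41906 bases from its cluster, Cbx5 154692, Calcoco1 198925 and Hnrnpa3 894119.

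Hox proteins bind DNA together with TALE homeodomain cofactors, all 9 of which were tested. With Zscan4f the cofactor Pbx3 rose (3 of 9 cofactors were called, against 18.5% of all genes), from 38.3 ± 1.053 to 47.0 ± 3.18 TPM, 0.29 (SE 0.07, adjusted p = 0.021). Of the 2 called lower, Meis3 fell from 48.0 ± 1.94 to 31.9 ± 1.56 TPM, -0.57 (SE 0.06, adjusted p = 0.00037). The call of Pbx3 was lost in 4 alternative fits. The list median was -0.18. With Zscan4f3A none was called against control, where 0.0316% of all genes were, and Meis3 stood at 51.9 ± 3.50 TPM.

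Of 31 Polycomb genes, which keep unused Hox genes silent, all were tested and 2 were higher and 2 lower with Zscan4f, with a list median of -0.08. These were Ezh1 (0.24, adjusted p = 0.033), a histone H3 methyltransferase, and Pcgf5 (0.48, adjusted p = 0.042), and on the other side the accessory subunits Phf19 (-0.48, adjusted p = 0.026) and Aebp2 (-0.36, adjusted p = 0.038). The core subunits Ezh2, Eed and Suz12 were not called. Of 22 tested Trithorax-type IDs, with a list median of -0.03, Kdm6a, a demethylase of the Polycomb mark, rose from 18.6 ± 0.684 to 27.9 ± 5.46 TPM (0.54, adjusted p = 0.02). Kmt2c (-0.23, adjusted p = 0.04), Ash1l (-0.17, adjusted p = 0.048) and Psip1 fell, Psip1 from 101 ± 6.72 to 77.1 ± 3.61 TPM, -0.38 (SE 0.06, adjusted p = 0.0018). Both lists had shares called below the 18.5% of all genes in this comparison or near it, 4 of 31 and 4 of 22.

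Other positional transcription factors, those of limbs, face and body wall, numbered 52, of which 37 were tested and 2 rose and 3 fell with Zscan4f, with a list median of -0.07. These 5 of 37 were a smaller share than the 18.5% of all genes called in this comparison. Tbx2, a T-box repressor of limb and heart, was at 27.3, 31.8 and 27.9 TPM in control, 48.5, 46.6 and 46.8 in Zscan4f and 30.6, 33.7 and 30.9 in Zscan4f3A and rose at 0.69 (SE 0.07, adjusted p = 0.00022). Meox2, a homeobox gene of somites and limb muscle, was at 15.4, 15.5 and 16.6 TPM in control, 7.71, 9.09 and 10.3 in Zscan4f and 16.3, 13.9 and 14.7 in Zscan4f3A and fell at -0.76 (SE 0.10, adjusted p = 0.0013). Emx2 fell in both overexpression groups, -1.12 with Zscan4f (adjusted p = 7.5e-06) and -0.78 with Zscan4f3A (adjusted p = 0.0042). Tbx5, of the forelimb, fell (-0.36, adjusted p = 0.0497), and Tbx4 and Pitx1, of the hindlimb, were not called (-0.13 and 0.27). Of the 8 ParaHox and Evx genes only Evx2, next to Hoxd13, was tested, at 0.97 to 1.96 TPM, with -0.20 (SE 0.18, adjusted p = 0.53) in Zscan4f against control.

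Retinoic acid is the classical inducer of 3′ Hox genes, and 8 of 13 tested genes of its metabolism and response were called with Zscan4f, 4 in each direction, against 18.5% of all genes. Crabp2, a carrier that delivers retinoic acid to its receptors, was at 823, 866 and 855 TPM in control, 1304, 1316 and 1309 in Zscan4f and 928, 906 and 888 in Zscan4f3A and rose at 0.63 (SE 0.03, adjusted p = 4.4e-06). Aldh1a3, an enzyme that makes retinoic acid, rose from 15.5 ± 0.470 to 29.6 ± 1.17 TPM, 0.89 (SE 0.05, adjusted p = 1.5e-05), and Aldh1a1, a related enzyme, fell from 28.7 ± 0.774 to 15.9 ± 2.26, -0.82 (SE 0.09, adjusted p = 0.00051). The list median was 0.06. Cyp26b1, which breaks retinoic acid down, was also higher, and Rarg, Rdh10 and Crabp1 were lower. With Zscan4f3A 0 of the 13 were called against control, where only 0.0316% of all genes were, so this count says little about the list. The 3′ Hox genes did not move as 1 set with Zscan4f: of the 6 tested members with numbers 1 to 3, 3 had a log2 fold change above 0 and 3 below, and only Hoxb2 was called. A link between the retinoic acid genes and the Hox genes was not tested.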

How the data were processed

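RNA-seq of 9 libraries was read from deposited tables with 1 row per gene, in TPM, FPKM and coverage. Per the submitters' processing notes, the authors used HISAT2 2.1.0 and StringTie, without a StringTie version, an annotation or a genome build. Of the 54986 gene IDs, 54165 are in GENCODE M21, 97.7% of them at the same GRCm38 coordinates, and coordinates are given as that build. The TPM and FPKM values were made by the authors, and the deposited coverage served only to estimate depth. Whether counting used strand is not stated. The labels give a TruSeq RNA kit.

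TPM were summed per gene ID. All 9 libraries were fitted as 3 groups on log2(TPM + 1) with limma 3.58.1 (R 4.3.3, empirical Bayes with a trend), over the 15837 genes at 1 TPM or more in at least 3 libraries. Tests were two-sided, with Benjamini-Hochberg adjustment per comparison, and a call was an adjusted p under 0.05. The fit was tested on simulated data. No 2 libraries held identical values (36 pairs), and no Hox ID had several entries.

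Members and gene lists were chosen with earlier results of these data known. Every library's value is given for members reaching a mean of 5 TPM in a group or called, and up to 4 called members of each other list are named. A few genes that enter the counts are not reported here by name or shown in the figures. Alternatives were another pseudocount (0.1), filter (none or 5 TPM), FPKM, median-of-ratios and quantile scaling, the groups compared fitted alone, no trend, a block by replicate number, each library left out and, added after the data were seen, overlapping entries summed. Promoter and miRNA sequences are from RefSeq (GRCm38.p6). Tables and figures were made with numpy 2.4.6, pandas 2.3.3 and matplotlib 3.10.9 in Python 3.11.15.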

Additional observations from a re-analysis of the deposited data

How the results depend on the processing

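Over all alternatives, 453 summary values kept their direction and side of the threshold or stayed within set limits, and 10 moved. For counts of Hox genes called the limit was 1.5-fold of the count in the main fit. A fall from 6 calls to 4, seen without control replicate 3, thus counted as kept, as did 0 against 0. Leaving out 1 library gave 3 to 7 Hox genes called in Zscan4f against control (6 with all libraries): 2 to 6 higher, with 3 without control replicate 3 and 2 without Zscan4f replicate 3, and 1 to 2 lower. The genes called lower were 2 with only the groups compared, which added Hoxa10 to Hoxd13. With overlapping entries summed they were also 2, where the addition was the summed row of Hoxa11 and Hoxa11os. In Zscan4f against Zscan4f3A, 0 to 1 were lower without 1 library (1 without control replicate 3 and 1 without Zscan4f3A replicate 3). With overlapping entries summed it was 1, the same summed row. In Zscan4f3A against control 0 were called under every alternative run. The log2 ratio of the all Hox genes summed level of Zscan4f3A to control was -0.036 in TPM and -0.012 in FPKM. Of single genes, the Hoxa11 log2 fold change in Zscan4f against Zscan4f3A was -0.39 and ran from -0.74 to 0.17 with 1 library left out. It reversed to 0.17 without Zscan4f replicate 3, which held 4.5 TPM against 18.6 and 14.97 in the other Zscan4f libraries. The cause of that low value was not tested. The change of Hoxd3 was 0.61, and that of its row summed with the Hoxd4 IDs and Gm28230 was -0.12. In that row the main Hoxd4 ID (means of 5.24 TPM with Zscan4f and 6.29 with Zscan4f3A) outweighed Hoxd3 (1.99 and 0.945), so -0.12 is not a value of Hoxd3 alone. Among the other single values, 140 lost and 11 gained a call.

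With the replicate block, 5 Hox genes were called in Zscan4f against control and 3 in Zscan4f against Zscan4f3A (2504 and 1883 of all genes, against 2922 and 2395 without it), and 0 in Zscan4f3A against control. The deviations of same-numbered libraries from their group means correlated at -0.079 to 0.053 over 9 pairs. Those of the 18 other pairs across groups correlated at -0.048 to 0.054, so no pairing by number was seen. Without counts, depth per gene is unknown, and 3 libraries a group limit the precision.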

Other observations

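Small noncoding entries inside Hoxa11os were near 0 in some libraries and well above it in others of the same group. Gm27492 was at 0.0107, 10.6 and 0.00742 TPM in control, 11.8, 0.0160 and 0.0238 in Zscan4f and 0.0230, 11.2 and 0.227 in Zscan4f3A. Gm27695 was at 20.4, 23.3 and 17.9 TPM in control, 0.296, 20.3 and 15.8 in Zscan4f and 22.8, 0.287 and 19.6 in Zscan4f3A. Control replicate 2, Zscan4f replicate 1 and Zscan4f3A replicate 2 held the high values of Gm27492, and Zscan4f replicate 1 and Zscan4f3A replicate 2 held the low values of Gm27695. These switches did not follow the groups, and no cause was tested.

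Without the 6 genes called in Zscan4f against control, paralogue numbers 9 to 13 still held a smaller share of the summed Hox TPM with Zscan4f, 48.8 ± 1.26% in control, 45.1 ± 1.62% with Zscan4f and 49.3 ± 0.446% with Zscan4f3A.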
